A study of Homo sapiens with 6 samples.

Results

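Probes for 10 genes of heterogeneous nuclear ribonucleoproteins (hnRNPs) were followed through cap immunoprecipitates of MOLT-4, an established T-cell acute lymphoblastic leukaemia line. The genes were HNRNPA1, HNRNPA2B1, HNRNPA3, HNRNPC, HNRNPD, HNRNPH1, HNRNPH3, HNRNPK, HNRNPU and SYNCRIP, and every probe whose gene name in the array files equalled one of them was taken. These are 10 of 36328 gene names and 29 of 50586 usable probes. HNRNPA2B1, HNRNPH3 and SYNCRIP had been among the lower genes named in an earlier analysis of the same arrays. The difference between the groups therefore chose the members, and it is given below as a description. Counts of limma calls on it stand beside the share over all probes, and nothing is read from them.

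The cells had received either an empty vector (the mock group) or NUDT16, a gene for a decapping enzyme, and each group had 3 arrays. RNA carrying m3G or m7G caps was pulled down from total RNA, copied to cDNA, labelled with Cy3 and hybridised to a 1-colour Agilent expression array. Both groups come from this 1 cell line, and the labels do not say whether the numbered replicates were separate transfections. Input RNA from before the pull-down was not analysed here, so RNA abundance and capping cannot be told apart in these signals, nor can fewer cells and less RNA per cell.

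Proteins of the hnRNP family coat nascent transcripts in the nucleus and act in splicing, 3′ end formation, export, stability and translation. Most carry RNA recognition motifs, hnRNP K carries KH domains, and hnRNP U binds RNA through glycine-rich repeats. Many members control their own messenger RNAs through alternative splicing that feeds nonsense-mediated decay, and their messengers are abundant in dividing cells. SYNCRIP, also called hnRNP Q, is a largely cytoplasmic relative that acts in translation and mRNA stability. An m7G cap protects a messenger RNA from decay that starts at its 5′ end and recruits the translation machinery, while the trimethylated m3G cap marks small nuclear RNAs.

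What each signal measures depends on the probe, since these 60-base oligos sit at different places of a transcript. The following probes are printed because large differences, or a doubtful position, rest on them. Sequences are those of the array files, 5′ to 3′, with hg19 positions. Capitals mark the longest run without G or C, because base composition moved with the group difference. In the pair of HNRNPA3 probes they mark the bases at which the 2 differ.
HNRNPA3 A_24_P269895, chr2:178080329-178080388, plus strand: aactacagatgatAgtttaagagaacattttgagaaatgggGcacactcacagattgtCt
HNRNPA3 A_33_P3422170, chr2:178080329-178080388, plus strand: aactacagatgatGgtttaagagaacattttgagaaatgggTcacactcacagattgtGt
HNRNPC A_24_P178423, chr2:190788815-190788876, plus strand: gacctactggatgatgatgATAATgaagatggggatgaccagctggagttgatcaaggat
HNRNPH3 A_24_P338187, chr10:70101030-70101364, plus strand: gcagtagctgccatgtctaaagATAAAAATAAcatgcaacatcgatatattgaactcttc
SYNCRIP A_32_P8402, chr6:86323693-86323723, minus strand: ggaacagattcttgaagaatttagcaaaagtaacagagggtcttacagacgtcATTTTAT

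The HNRNPC probe A_24_P178423 is placed on chromosome 2, while the other HNRNPC probes lie on chromosome 14. HNRNPH3 A_24_P338187 covers 335 bases of genome with 60 bases of oligo, so its placement holds a gap, and SYNCRIP A_32_P8402 is placed over 31 bases only. Only 3 of the 29 probes share an exact run of 20 bases with any other probe of the array: the HNRNPA3 pair with each other, and HNRNPC A_33_P3294017 with a DDTL probe. No gene models on hg19 were used, so exons and untranslated regions are not named.

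Signals are log2 values minus the 75th percentile of their array, taken over the 6582 probes well above background on all 6 arrays. The share of cell RNA spots well above background was 39.3% to 51.1% on mock arrays, 42.3% and 52.0% on NUDT16 replicates 1 and 3, and 14.6% on NUDT16 replicate 2. On that dim array the lowest signal well above background lay at -3.52 on the scaled axis, against -8.03 to -7.05 on the other 5, so a probe below -3.52 elsewhere could not be followed down there. Each of the 3 slides held the mock and NUDT16 arrays of 1 replicate number and was scanned on its own occasion. No probe named NUDT16 passed the filter, so the transfected gene could not be followed under its own name. A probe of NUDT16P1, a pseudogene of it, was the 1 probe called: it was not well above background on the mock arrays (-9.96 to -9.25) and read -3.27 to -2.14 on the NUDT16 arrays (limma adjusted p 0.00155). Of 15 markers of a T-cell leukaemia line, 13 were detected on every mock array, the exceptions being CD7 and RAG1. Of 17 markers of other cell types 6 were detected, among them CD79A, KRT8, KRT18 and PECAM1. By pair those 6 had median differences of -0.38, 1.08 and -0.33, against -0.93, -1.12 and -0.26 for the hnRNP members, and 2 of the 6 were detected on all NUDT16 arrays. Their part in the results was not tested.

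HNRNPA1, HNRNPA2B1 and HNRNPA3 form the A/B group, proteins with paired RNA recognition motifs and a glycine-rich tail that often silence exons. HNRNPA2B1 had the widest spread between probes. Its probe A_24_P3973 read linear intensities of 7890, 8649 and 9683 on mock replicates 1, 2 and 3, and 2901, 97.0 and 10780 on the NUDT16 arrays. On the scaled log2 axis this is 0.08, 1.68 and 1.04 in mock, and -1.41, -1.20 and 0.63 with NUDT16. NUDT16 replicates 1 and 2 lay below every mock array and NUDT16 replicate 3 lay inside the mock range. The means were 0.93 ± 0.80 (SD, n = 3) and -0.66 ± 1.13 (SD, n = 3), a difference of -1.59 with a standard error of 0.73 from the fit across all probes.

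The brightest HNRNPA2B1 probe, A_33_P3362891 at chr7:26240222-26240281, read 1.60, 4.97 and 4.10 in mock, and 0.67, 3.93 and 3.36 with NUDT16. Both arrays of slide 1 were far below the other 4, by more than any of its pair differences. Within a slide NUDT16 was lower by similar amounts, -0.92, -1.04 and -0.75 in replicates 1, 2 and 3. The mean difference was -0.90 (SE 1.0, or 0.3 with the replicate number as a block). Without NUDT16 replicate 1 it turned to 0.085, in a fit without a block that kept mock replicate 1 of the same slide. The remaining probe, A_33_P3337318 at chr7:26240974-26241033, was dim, with -5.54 to -6.29 in mock. Its pair differences were -0.82 and -0.34 in replicates 1 and 3, and 2.62 in replicate 2, where the mock values lay below the floor of the NUDT16 array. It was the tested member probe with a higher mean under NUDT16 (0.49, SE 0.93).

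HNRNPA3, a close relative of HNRNPA2B1, had 6 probes, and they varied together, with Pearson's r between probes from 0.84 to 1 over the 6 arrays. The pair printed above share their position and differ by A14G, G42T and C59G, counted from the 5′ end of A_24_P269895. That probe read -0.33, 3.45 and 2.57 in mock and -1.53, 0.40 and 1.77 with NUDT16, and its partner -1.58, 2.08 and 1.16 in mock and -2.87, -0.97 and 0.54 with NUDT16. Their differences were -1.68 (SE 1.03) and -1.65 (SE 1.02), and in each pair 2 held the widest, -3.05. The other 4 HNRNPA3 probes, placed further along the plus strand, had differences from -1.46 to -0.98. The brightest of them, A_32_P77502, read 1.04, 3.35 and 2.96 in mock and -0.07, 1.82 and 2.32 with NUDT16. In every HNRNPA3 probe except A_23_P86660, NUDT16 replicate 1 was the lowest array; there it lay at -3.37 beside -3.45 on NUDT16 replicate 2, where the probe was not well above background.

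HNRNPA1, which represses exons and shuttles between nucleus and cytoplasm, was lower by less. The brightest probe, A_32_P42197 at chr12:54678778-54678837, read 2.91, 3.37 and 3.78 in mock and 2.13, 2.56 and 3.59 with NUDT16. The groups overlapped, with means of 3.35 ± 0.44 (SD, n = 3) and 2.76 ± 0.75 (SD, n = 3) and a difference of -0.59 (SE 0.63). The probe A_24_P517901 had a difference of -1.28 (SE 0.85), of which pair 2 held -2.42. The remaining one, A_33_P3384260, had -0.31 (SE 0.60) and was higher with NUDT16 in pair 2, by 0.28.

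**Figure D1:**
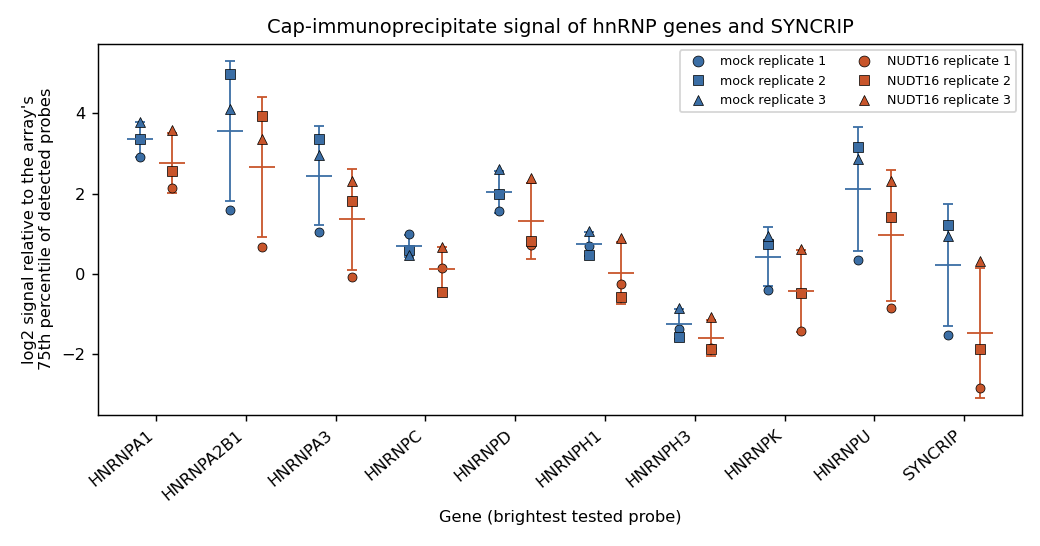
Log2 signal relative to each array's 75th percentile of detected probes (vertical axis) for the brightest tested probe of each of the 10 genes (horizontal axis), with points for single arrays, shapes for replicate numbers, colours for groups and bars for the mean ± SD of 3 arrays. All 10 genes have a lower NUDT16 mean, and the mock and NUDT16 points overlap in each. Levels of different probes are not comparable with each other.

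HNRNPC, which binds uridine tracts and forms the tetramer around which pre-mRNA is packaged, was higher with NUDT16 in replicate 3. Its brightest probe, A_32_P142028 at chr14:21678868-21678927, read 1.0, 0.59 and 0.47 in mock and 0.15, -0.44 and 0.67 with NUDT16. By pair the differences were -0.85, -1.03 and 0.20, with a mean of -0.56 (SE 0.60). A_33_P3294017 had -0.73, -2.26 and 0.10, but was not well above background on NUDT16 replicate 2. The oligo placed on chromosome 2 had -0.75, -0.55 and 0.27. All 3 HNRNPC probes were thus above 0 in pair 3, and no other tested member probe was.

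HNRNPD, also known as AUF1, binds AU-rich elements in short-lived messengers. Its brightest probe, A_23_P58353 at chr4:83275180-83275239, read 1.56, 1.99 and 2.60 in mock and 0.72, 0.81 and 2.40 with NUDT16. NUDT16 replicates 1 and 2 lay below the mock range and replicate 3 near its top, giving a difference of -0.74 (SE 0.67). The second probe, A_24_P123245, had -1.08 (SE 0.79) and was well above background on 5 arrays.

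Members of the H group bind runs of guanines through variant RNA recognition motifs. HNRNPH1 was measured by 1 probe, A_24_P320254 at chr5:179041483-179041542, which read 0.70, 0.48 and 1.07 in mock and -0.24, -0.57 and 0.89 with NUDT16, a difference of -0.72 (SE 0.62). The other 2 oligos under this name, at chr5:179061360-179061419 and chr5:179061572-179061631, failed the filter on dim probes. One of these was well above background on 2 arrays and the other on none, so no difference is read from them.

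HNRNPH3 showed how far probes of 1 gene can part. Its probe A_24_P338187, printed above, read -2.45, -0.13 and -0.58 in mock and -3.82, -2.99 and -1.28 with NUDT16. The second probe, A_23_P115824 at chr10:70102702-70102761, read -1.36, -1.56 and -0.84 in mock and -1.84, -1.87 and -1.07 with NUDT16. The first had a difference of -1.65 (SE 0.82) and the second of -0.34 (SE 0.59), with pair 2 at -2.86 and -0.31. All 3 pairs of the second lay between -0.48 and -0.22.

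HNRNPK binds cytidine-rich RNA and DNA through its KH domains. Its brightest probe, A_24_P389517, placed over chr9:86585236-86585700, read -0.41, 0.75 and 0.94 in mock and -1.41, -0.47 and 0.63 with NUDT16. The difference was -0.85 (SE 0.70), with pairs at -1.0, -1.23 and -0.31. A_24_P380919 had -1.07 (SE 0.76). The dim A_33_P3362727 was not well above background on NUDT16 replicates 1 and 2, so its difference of -0.91 rests partly on background values.

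HNRNPU, or scaffold attachment factor A, ties RNA to chromatin. The probe A_23_P160862, placed over chr1:245018289-245018727, read 0.35, 3.15 and 2.86 in mock and -0.84, 1.41 and 2.32 with NUDT16. As for the bright HNRNPA2B1 probe, the mock array of slide 1 was lower than both NUDT16 arrays of slides 2 and 3. The difference was -1.15 (SE 0.93), with pairs at -1.18, -1.74 and -0.53. The second HNRNPU probe, A_32_P51894, had -0.70 (SE 0.81) and was well above background on 5 arrays.

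SYNCRIP had the lowest difference among the brightest probes of the 10 genes. The probe A_32_P8402, printed above, read linear intensities of 2609, 6332 and 9107 in mock and 1077, 60.9 and 8641 with NUDT16. Scaled, this is -1.52, 1.23 and 0.95 in mock and -2.84, -1.88 and 0.31 with NUDT16, so 2 NUDT16 arrays lay below all mock arrays and replicate 3 among them. The means were 0.22 ± 1.51 (SD, n = 3) and -1.47 ± 1.62 (SD, n = 3), and the difference was -1.69 (SE 0.93), with pairs at -1.32, -3.1 and -0.63. A second SYNCRIP probe, A_23_P214798 at chr6:86324133-86324192, had pairs at -1.07, -1.37 and -0.38 and a difference of -0.94 (SE 0.67). HNRNPR, the closest paralogue of SYNCRIP, read -1.50, -0.75 and -0.40 in mock and -2.44, -2.10 and -0.77 with NUDT16, a difference of -0.89 (SE 0.66).

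**Figure D2:**
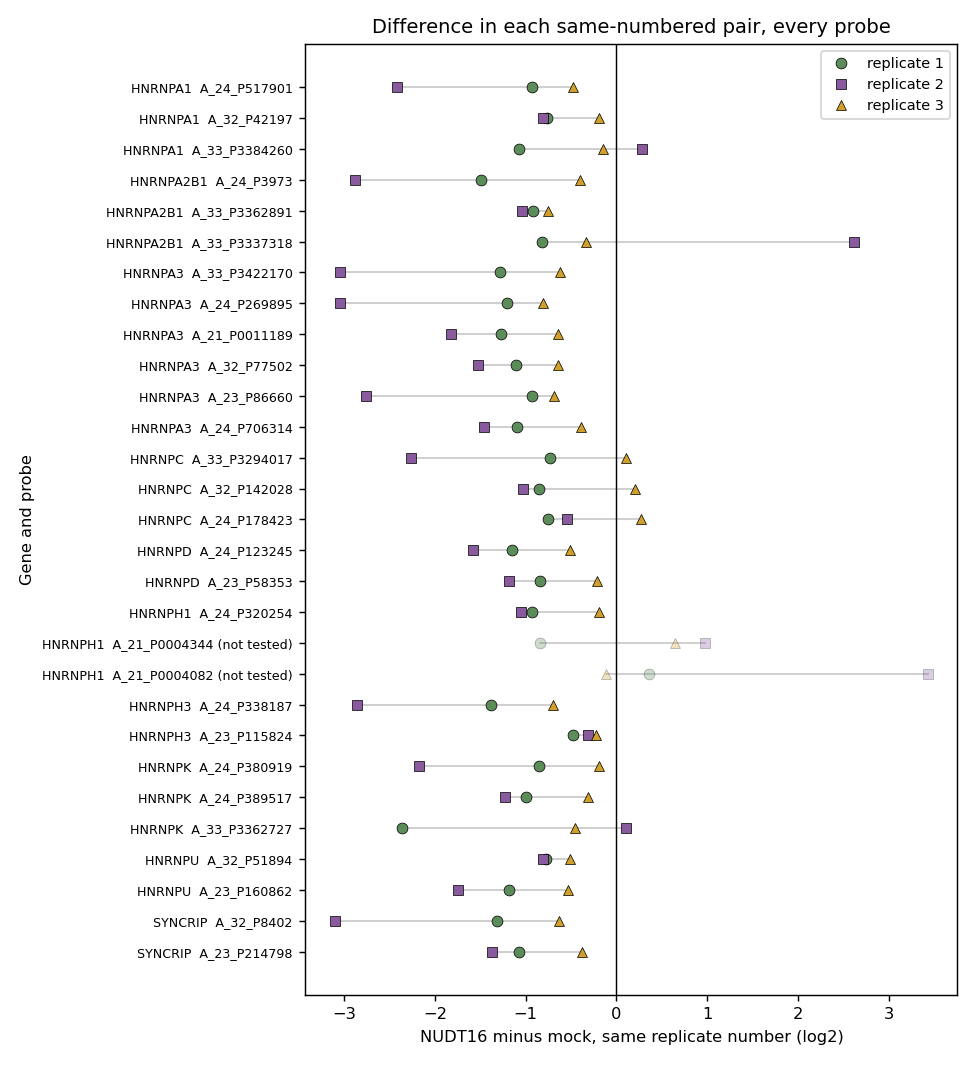
NUDT16 minus mock on the log2 scale (horizontal axis) within replicates 1, 2 and 3, for each of the 29 probes (vertical axis, by gene); the 2 faint rows are HNRNPH1 probes that failed the filter. Pair 2 lies furthest to the left in 22 of the 27 tested probes, and pair 3 lies nearest to 0 in 26.

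Over the family, 27 of the 29 probes passed the filter, and 22 were well above background on all 6 arrays. The other 5 passed through the mock arrays alone. Of all 17765 tested probes 6582 were well above background on all 6 arrays, a smaller share, so the shares below are of unlike make-up. Among probes detected on all 6 arrays the median difference was -0.96 for the 22 member probes and 0.16 for all 6582. Of the 27, 26 had a lower mean with NUDT16, against 56.8% of all tested probes, and 21 were lower in all 3 pairs, against 27.5%. In pairs 1 and 3 alone 24 were lower in both, against 48.3%. At least 2-fold lower were 12 (7.05% of all). The groups did not overlap for 0 of the 27 (0.281% of all were lower without overlap). With limma and Benjamini-Hochberg adjustment 0 of the 27 were called lower (0% of 17765 probes; 1 probe in all was called higher, 0.00563%). At an unadjusted p under 0.05 there was 1, HNRNPA2B1 A_24_P3973, against 0.0169% of all probes on the lower side and 0.045% on either. With the replicate number as a block there were 16, against 8.94%, and 0 after adjustment (0% of all). Because this contrast chose the members, nothing is read from these counts.

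By gene, with the brightest probe of each, all 10 members had a lower mean (54.2% of 13734 genes), with a median difference of -0.79 and a range from -1.69 to -0.34. The median of all genes was -0.06. It was 0.177 over genes whose brightest probe was well above background on all 6 arrays, as it was for all 10 members. By pair the median of the 10 was -0.93, -1.12 and -0.26 in replicates 1, 2 and 3, against -0.32, 0.12 and -0.03 for all genes. Pair 3 thus held the smallest differences, and pair 2, with the dim array, the widest, from -3.1 to -0.31. The median moved when single arrays were left out: it was -0.36 without NUDT16 replicate 1 and -1.27 without NUDT16 replicate 3, and -0.65 without NUDT16 replicate 2. Each of these fits broke a pair by keeping the mock array of the same slide, so differences between slides enter the values. With both arrays of replicate 2 left out and the other pairs kept, the median was -0.61. In a paired limma fit on replicates 1 and 3 alone, 7 of the 27 probes were called lower (3.38% of all), namely 1 each of HNRNPA2B1, HNRNPH3, HNRNPK and SYNCRIP and 3 of HNRNPA3. With so few arrays the calls of this paired fit lean largely on the spread pooled over all probes. The HNRNPK probe, A_33_P3362727, was not well above background on NUDT16 replicate 1, and the count of 7 rests on the contrast that chose the members, so nothing is read from that count.

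The difference between slides was large for the members. It is made from the arrays of slides 1 and 3, which also enter the group difference that chose them, so the measures are not independent. The median over the 10 brightest probes was 0.85, 1.61 and 1.84 on mock replicates 1, 2 and 3 and -0.16, 0.19 and 1.60 on the NUDT16 arrays, so NUDT16 replicate 3 stood above mock replicate 1. Averaged over both groups, 25 of the 27 probes were higher on slide 3 than on slide 1 (66.1% of all tested probes) and 20 by 1 or more on the log2 scale (36.6%). The median slide difference was 1.86 for the member probes, from -0.21 to 3.46, and 0.52 for all. The 3.46 is of HNRNPK A_33_P3362727 and rests on background values on NUDT16 replicate 1. Among probes detected on all 6 arrays it was largest for the HNRNPA3 pair (3.1 and 3.07), and nearest to 0 for HNRNPC A_32_P142028 (-0.01).

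Slide difference and group difference moved together. Across all 17765 tested probes Pearson's r between them was -0.72, and across the 27 member probes -0.66. This is a description, since probes share the same 6 arrays, and the arrays of slides 1 and 3 enter both differences. Within pairs 1, 2 and 3 r was -0.76, -0.43 and -0.61 over all tested probes. Pair 2 shares no array with the slide difference, and the cause of its r was not tested. Grouped by slide difference, the median group difference of all probes was 0.33 where slide 3 was below slide 1 and -0.11, -0.44, -0.71 and -0.94 in the bands 0 to 1, 1 to 2, 2 to 3 and 3 and over. The 2 member probes with slide 3 below slide 1 had a median of -0.45. Member probes in the last 4 bands, 5, 7, 10 and 3 in number, had medians of -0.34, -0.94, -1.20 and -1.65. Since the group difference chose the members, nothing is read from their place within a band.

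Base composition moved with the difference too. The GC content of the member probes had a median of 38.3%, from 30% to 65%, against 43.3% for all tested probes. Across all tested probes the group difference correlated with GC content at r = 0.40, and across the 27 member probes at r = 0.59. Among those 27 only A_33_P3362891 and A_33_P3337318 of HNRNPA2B1 lay above 45%, and r without them was not computed. HNRNPA2B1 held probes of unlike GC content, with 35% for A_24_P3973 (difference -1.59), 60% for A_33_P3362891 (-0.90) and 65% for A_33_P3337318 (0.49). In pairs 1 and 3 alone their differences were -0.95, -0.84 and -0.58, so the spread between them came largely from pair 2. For HNRNPH3 the GC contents were 35% and 40%, beside differences of -1.65 and -0.34. HNRNPU ran the other way, with 45% beside -1.15 and 35% beside -0.70, and -0.86 and -0.65 in pairs 1 and 3 alone. In HNRNPA3 the probe of 30% had -1.09, while the printed pair, at 36.7%, had -1.68 and -1.65. The part of slide and base composition in the group differences was not tested.

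**Figure D3:**
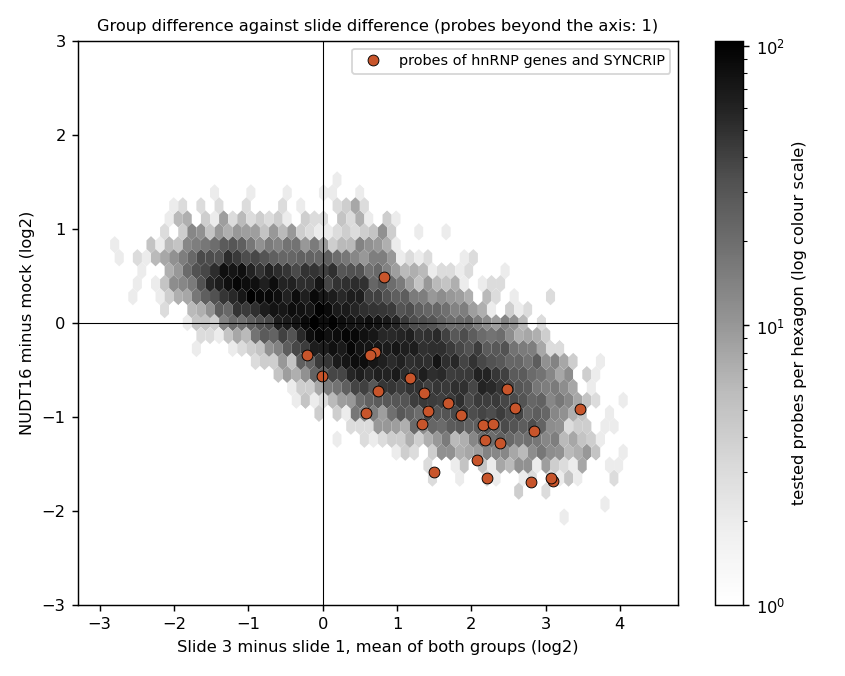
NUDT16 minus mock (vertical axis, log2) against slide 3 minus slide 1 averaged over both groups (horizontal axis, log2) for 17765 tested probes, as hexagons shaded by number on a log colour scale, with the 27 member probes as points and 1 probe beyond the axis. Probes with a larger slide difference have a lower group difference, and most member points lie at the lower right of the cloud.

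Other genes of the family were taken from a list of 25 further hnRNP and hnRNP-like genes, of which 23 were tested. None were called in limma (0 of 23), 18 had a lower and 5 a higher mean, and the median difference was -0.29. The lowest were HNRPDL (now HNRNPDL), a paralogue of HNRNPD, at -1.42, HNRNPH2 at -1.39 and RBMX, also called hnRNP G, at -1.11. None of these 3 was well above background on NUDT16 replicate 2, so their order rests partly on background values. In pairs 1 and 3 alone their differences were -0.70, -0.81 and -0.39, while HNRNPM, detected on all 6 arrays, had -0.79. HNRNPH2, the close paralogue of HNRNPH1, read -3.71, -2.84 and -2.48 in mock and -4.85, -5.39 and -2.95 with NUDT16. The highest were PCBP4 at 0.60, RALY, a relative of HNRNPC, at 0.50 and PTBP1, the polypyrimidine tract-binding protein, at 0.27. PCBP4 and PTBP1 were not well above background on NUDT16 replicate 2, and in pairs 1 and 3 alone they had 0.39 and 0.36, against 0.53 for RALY. RALY read -0.09, -1.79 and -1.89 in mock and 0.42, -1.34 and -1.35 with NUDT16, with pairs of 0.51, 0.45 and 0.54. PTBP1, PCBP4 and RALY also had the opposite slide difference, at -1.57, -1.54 and -1.79.

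Beside these, 13 tested serine-arginine splicing factors, which often oppose hnRNPs at exons, had a median of -0.48 with 11 lower, a median slide difference of 1.56, and 0 called. The 21 genes for proteins of the spliceosomal snRNPs had a median of -0.19 with 13 lower, a slide difference of 0.14, and 0 called. The 10 members had -0.79 beside a slide difference of 1.53. In each of these lists 0 genes were under an unadjusted p of 0.05 in limma, against 7 of all 13734 genes, so limma called none of them at either threshold. So few genes are fewer than a threshold of 0.05 passes by chance, in a fit whose error holds the slide differences. The 0 therefore does not show that these genes were unchanged. With the replicate block 1734 of 17765 probes were under an unadjusted p of 0.05 in limma, and 0 genes of these lists were called after adjustment. Whether the lists differ was not tested.

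**Figure D4:**
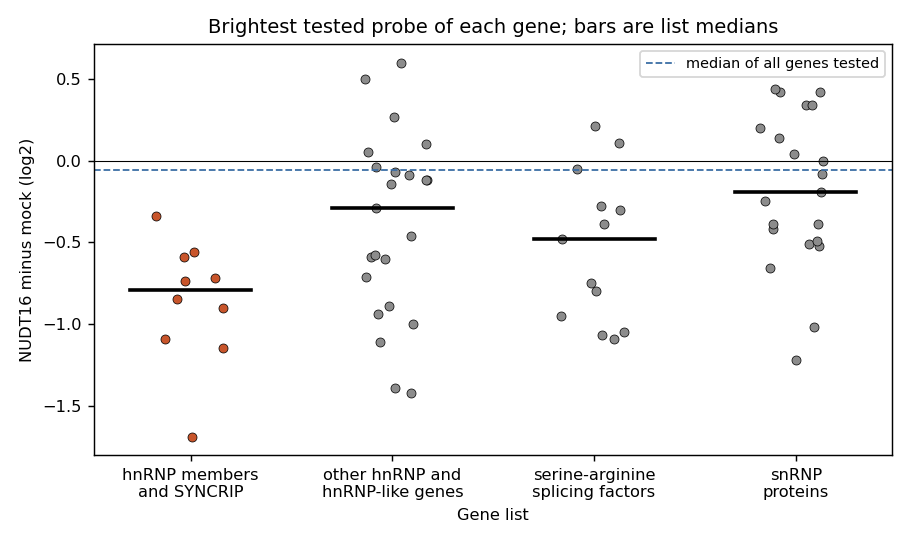
NUDT16 minus mock (vertical axis, log2) for the brightest tested probe of each gene in 4 gene lists (horizontal axis), with bars at the list medians and a dashed line at the median of all genes tested. The members' median is -0.79, the other lists lie between -0.48 and -0.19, and all genes at -0.06. All 10 members were detected on all NUDT16 arrays. Of the other lists, 14 of 23 hnRNP and hnRNP-like genes, 10 of 13 serine-arginine factors and 19 of 21 snRNP genes were. The medians of those lists therefore hold some background values.

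The genes whose pattern over the 6 arrays was most like the mean profile of the 10 members were found among 5644 genes detected on all arrays. The 5 nearest were THC2537477 (r = 0.999 over 6 arrays), A_24_P135391, FUBP1, SERBP1 and RSL1D1 (each r = 0.995 or above), the first 2 being named in the files only by a transcript cluster or probe. SERBP1, an mRNA-binding protein found on ribosomes, read -0.62, 2.28 and 2.10 in mock and -2.06, -0.46 and 1.49 with NUDT16. FUBP1, a KH-domain protein, read -2.11, -0.52 and -0.44 in mock and -3.16, -2.25 and -0.68 with NUDT16. RSL1D1 had a group difference of -1.61 and THC2537477 of -1.84. All 5 had slide differences of 2.07 or more. The profile they were picked by holds the members' slide and group differences, so such values come with the choice and nothing is read from them.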

How the data were processed

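Cap-immunoprecipitated RNA from MOLT-4 cells, 3 mock and 3 NUDT16 arrays grouped by title, was hybridised to Agilent design 039494. Per the file headers, the authors' scanner intensity (Feature Extraction 10.7.3.1) has had background and spatial trend removed, with surrogate values for spots not above background. The authors' deposited log2 table follows the rank of median spot minus background (Spearman's rho 1 on every array); its making is not stated in the labels, and it served as an alternative. Control and outlier spots were dropped and spots of a probe averaged. Log2 intensities were shifted by each array's 75th percentile over probes well above background on all 6 arrays, since under 15% of spots passed on NUDT16 replicate 2 and a percentile over all probes would be a background value there.

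The 17765 probes that passed the background flag on all 3 arrays of either group entered limma 3.58.1 (R 4.3.3), two-sided, Benjamini-Hochberg at 0.05, without a block. The brightest tested probe stood for a gene. The procedure was tested on simulated data. Named are all members, the 3 highest and 3 lowest other hnRNP genes with HNRNPR, and the 5 genes of most similar profile. Members and lists were chosen with earlier results of these data known. Same-numbered arrays shared a slide and a scan, and deviations from group means correlated at 0.84, 0.39 and 0.77, so the numbers pair the arrays. The fit without a block ignores this pairing, and its SEs and p-values hold the differences between slides. Precision is limited by the number of arrays, and p-values measure the spread between arrays, which may be technical. Some probe sequences and marker names are not reported here.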

Additional observations from a re-analysis of the deposited data

How the results depend on the processing

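All 10 members kept a lower mean in every alternative except leaving out NUDT16 replicate 1 (9 of 10). Other dim-probe filters, the replicate block and the intensity trend left the difference of each brightest probe unchanged by construction. Another percentile, the median or no scaling shifted all probes alike. The contrast also chose the members, so nothing is read from the counts of lower values. Of 190 alternative values for the 10 genes, these repeats included, 189 were below 0 and 1 passed the threshold, SYNCRIP in the paired fit on replicates 1 and 3 (-0.98). The exception below 0 was HNRNPA2B1, with -1.88 to 0.085 over the fits that each dropped an array. Over those fits, which had no block and kept the other array of the same slide, the members' median difference ran from -1.27 to -0.36. It was -1.79 without scaling, where the median of all genes was -1.06. The members stood 0.73 below that, as they must when all probes shift alike. Normexp put the median of all genes at 0.46 and the members at -0.76. The replicate block cannot move a difference of means in this balanced design, so the members' median is -0.79 with it too. It did lower the SEs, and probes at an unadjusted p under 0.05 in limma went from 8 to 1734. The 1 probe called over all was that of NUDT16P1 with and without the block, so the block changed no call after adjustment.

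The count of 1 probe called over all was 0 under no scaling, normexp, no dim-probe filter, a filter on 6 arrays, and the deposited value table, with 1, 1, 160, 2 and 10 probes at an unadjusted p under 0.05 in limma. It was 613 in the paired fit on replicates 1 and 3, and 0 to 1 with an array dropped, 0 being without mock replicate 2 (1 at an unadjusted p under 0.05 in limma). The paired fit on replicates 1 and 3 leaves few arrays to estimate a probe's own spread. Its calls therefore lean largely on the spread pooled over all probes. The cause of these changes in count was not tested. Alternatives for the count of member probes with a lower mean were chosen after seeing the data. That count was 23 to 27 of the 27 tested, lowest without NUDT16 replicate 1, and 21 of the 22 detected on all 6 arrays. Signals near background on NUDT16 replicate 2 limit what dim probes can show.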

Other observations

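HNRNPA1L2, a gene related to HNRNPA1, had 5 tested probes, each lower with NUDT16 in all 3 pairs. Its brightest probe, A_32_P8015, read 2.69, 3.59 and 3.58 in mock and 1.70, 1.87 and 3.29 with NUDT16, and the 5 differences ran from -1.41 to -0.87. No probe of one name shared an exact run of 20 bases with a probe of the other, and cross-hybridisation was not tested. The antisense transcript HNRNPU-AS1 (A_33_P3380161) read -2.86, -4.39 and -3.50 in mock and -3.50, -3.32 and -3.61 with NUDT16, with pairs of -0.63, 1.07 and -0.12. Its mean difference of 0.11 turns on pair 2, where the mock value lay below the floor of the NUDT16 array, and pairs 1 and 3 alone gave -0.37, beside -0.86 and -0.65 for the HNRNPU probes. The difference between the genes was not tested.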
